A study of Mus musculus with 24 samples.

Results

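The Cyp2d genes encode cytochrome P450 monooxygenases of subfamily 2D. They were described here in the livers of mice with and without the Mup gene cluster. The members were taken by name. Of the 9 named genes (Cyp2d9, Cyp2d10, Cyp2d11, Cyp2d12, Cyp2d13, Cyp2d22, Cyp2d26, Cyp2d34 and Cyp2d40), 8 were matched among the 25746 genes of the count files. Cyp2d13 was not analysed here. The hepatic RNA of 24 mice aged 12 weeks was sequenced, with 1 library per mouse and 6 mice in each of 4 groups. All mice were of the strain labelled C57/BL6N. The groups were male wild type (mWT), male knockout (mKO), female wild type (fWT) and female knockout (fKO). The labels name no treatment. Per the study's methods, mice of every group were fasted, anaesthetised with isoflurane and scanned by microCT directly before they were killed. Homozygous knockout mice lacked the whole Mup cluster, which encodes the major urinary proteins. The deletion was made by CRISPR/Cas9, and the line descended from 1 male founder. Homozygous knockout offspring came from a heterozygous intercross, and whether wild type mice were their littermates is not stated for these groups. An effect of the deletion cannot be told apart from other changes carried by that founder near the cluster.

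P450 enzymes of the endoplasmic reticulum use electrons from NADPH, passed on by P450 oxidoreductase and cytochrome b5, to oxidise their substrates. The human genome holds a single functional gene of this subfamily, CYP2D6, known for the metabolism of many drugs, whereas the mouse holds a row of paralogs. Cyp2d9 is the best known of them as a male-predominant steroid hydroxylase. The pulsatile growth hormone of males, acting through STAT5B, is known to set many sex differences of the mouse liver, Mup and Cyp2d9 expression included.

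The libraries held 15361901 to 26261394 counted reads. Of the 25746 genes, 7064 had no read in any library. Between 272548 and 741314 reads of the 22 Mup genes were found in each mWT library and 70768 to 110248 in each fWT library. The highest Mup total was 10 reads among the mKO libraries and 11 among the fKO libraries. The Y-linked gene Ddx3y had no read in any female and 78.8 to 115 CPM in the males, as the sex labels state. CPM is a read count scaled to the same total in every library. Summed over the hepatocyte markers found (5 of 6), expression ranged from 88610 CPM to 145100 CPM, and none of them was at 0.

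In build GRCm38 the matched genes lie on chromosome 15 within 423768 bases, chr15:82370527-82794294. All 8 are annotated as protein coding in GENCODE M21. Cyp2d22 (ENSMUSG00000061740, chr15:82370527-82380260, minus strand) lies at one end of the row and Cyp2d26 (ENSMUSG00000022445, chr15:82790101-82794294, minus strand) at the other. Between them lie Cyp2d11 (ENSMUSG00000068085, chr15:82389154-82394022, minus), Cyp2d10 (ENSMUSG00000094806, chr15:82402846-82407195, minus) and Cyp2d9 (ENSMUSG00000068086, chr15:82433437-82456845, plus). They are followed by Cyp2d12 (ENSMUSG00000096852, chr15:82555072-82560403, plus), Cyp2d34 (ENSMUSG00000094559, chr15:82615965-82620946, minus) and Cyp2d40 (ENSMUSG00000068083, chr15:82759833-82764183, minus). Values of each gene are given as the sum over its annotated exons.

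Cyp2d9, Cyp2d10, Cyp2d11, Cyp2d12 and Cyp2d34 have closely similar transcripts. Over the aligned bases, the first listed transcript of Cyp2d9 was 91.6% identical to that of Cyp2d10 and 93.4% identical to that of Cyp2d11, and Cyp2d10 and Cyp2d11 were 94.2% identical. Cyp2d12 was 91.4% identical to Cyp2d9, and Cyp2d34 91.9% identical to Cyp2d11. Cyp2d26 and Cyp2d22 were more distant, at 81.2% and 77.0% identity to Cyp2d9. Reads were 100 bases long. Of all distinct 100-base windows in the transcripts of Cyp2d9, 7.91% also occurred in a transcript of another gene. This share was 11.7% for Cyp2d10, 12.2% for Cyp2d11, 1.73% for Cyp2d12 and at most 0.319% for Cyp2d22, Cyp2d26, Cyp2d34 and Cyp2d40. The pair that shared the most windows was Cyp2d10 and Cyp2d11, at 165. Cyp2d9 shared 65 with Cyp2d10 and 74 with Cyp2d12. A further 87 windows of Cyp2d9 occurred in the overlapping pseudogene Gm46501. Small values of Cyp2d11 and Cyp2d12 are therefore uncertain beside their abundant copies, since reads of close paralogs may have been shared or discarded in counting.

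The upstream sequences of Cyp2d9, Cyp2d10 and Cyp2d11 are shown because these similar genes had different levels and sex differences, and that of Cyp2d26 because its sex difference ran the other way. They were taken from RefSeq (GRCm38.p6), which held entries for 5 of the 9 genes, as the 250 bases before each annotated start and are printed up to the first base annotated as exon in M21. The printed stretches are chr15:82452127-82452333 on the plus strand for Cyp2d9 and, on the minus strand, chr15:82407196-82407444 for Cyp2d10, chr15:82394023-82394272 for Cyp2d11 and chr15:82794295-82794495 for Cyp2d26. The Cyp2d9 stretch is upstream of the RefSeq start only. It lies inside the M21 span of the gene given above, which begins farther upstream. Capitals mark CG dinucleotides and the letters CAAAGG, part of a site of the liver factor HNF4, on the strand shown.
Cyp2d9: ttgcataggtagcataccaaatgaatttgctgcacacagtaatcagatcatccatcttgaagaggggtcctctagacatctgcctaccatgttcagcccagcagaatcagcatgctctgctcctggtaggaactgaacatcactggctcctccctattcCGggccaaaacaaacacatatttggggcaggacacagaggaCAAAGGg
Cyp2d10: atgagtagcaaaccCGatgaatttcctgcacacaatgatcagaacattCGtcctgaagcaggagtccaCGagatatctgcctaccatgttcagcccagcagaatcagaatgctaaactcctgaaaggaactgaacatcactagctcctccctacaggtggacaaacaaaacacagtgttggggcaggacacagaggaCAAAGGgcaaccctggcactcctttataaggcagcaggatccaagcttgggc
Cyp2d11: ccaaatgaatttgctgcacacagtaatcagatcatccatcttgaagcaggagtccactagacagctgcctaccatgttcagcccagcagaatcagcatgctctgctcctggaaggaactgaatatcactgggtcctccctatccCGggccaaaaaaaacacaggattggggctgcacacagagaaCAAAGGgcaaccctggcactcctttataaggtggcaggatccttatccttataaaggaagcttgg
Cyp2d26: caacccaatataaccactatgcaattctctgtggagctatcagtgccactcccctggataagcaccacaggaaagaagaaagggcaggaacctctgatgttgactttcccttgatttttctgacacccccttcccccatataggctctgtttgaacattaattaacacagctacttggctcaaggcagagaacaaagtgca

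Of the upstream bases that aligned, Cyp2d9 was 93.6% identical to Cyp2d11 (234 aligned bases) and 85.0% identical to Cyp2d10 (246 aligned bases). The Cyp2d9 window held 1 CG, at positions -91 to -90 from the RefSeq start, within a match to CCGGAA on the minus strand. CCGGAA is the core bound by ETS factors such as GABP, and a CpG-containing ETS element of the Cyp2d9 promoter is known from earlier work. None of the windows of Cyp2d10, Cyp2d11, Cyp2d26 and Cyp2d40 held CCGGAA on either strand, whereas 12.03% of the 32851 promoter windows in the RefSeq table did. The single CG of Cyp2d11 lay at positions -106 to -105. Cyp2d10 held 3 CG, all farther upstream, and Cyp2d26 held 0. CAAAGG occurred in the windows of Cyp2d9, Cyp2d10, Cyp2d11 and Cyp2d40, against 17.6% of all windows, and TATAAG occurred in all 5, against 6.65%. The growth hormone element TTCNNNGAA occurred in none of the 5 windows and in 7.02% of all windows. GTTAAT, part of an HNF1 site, occurred in that of Cyp2d26 and in 6.43% of all. All motifs were sought on both strands, and CG lies within CCGGAA. The search covered all 250 bases, including the last 43 of Cyp2d9 and 49 of Cyp2d26. Those bases are not printed, since they follow the first base annotated as exon in M21. The TATAAG of Cyp2d9 (-26 to -21) and of Cyp2d26 (-29 to -24) lies there. These matches describe letters, not bound sites.

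Cyp2d9, Cyp2d10, Cyp2d22, Cyp2d26 and Cyp2d40 were detected in every mouse and made up nearly the whole Cyp2d read pool. Each had at least 0.66 CPM in all 24 libraries and was tested. Cyp2d11 reached that level in 3 libraries, Cyp2d12 and Cyp2d34 in 0, so these were not tested. To compare levels between genes, CPM was divided by the annotated exon length in kb. In mWT mice the order on the CPM per kb scale was Cyp2d9 (501 ± 84.5, SD, n = 6), Cyp2d10 (338 ± 22.9), Cyp2d26 (304 ± 28.4), Cyp2d22 (64.8 ± 6.32) and Cyp2d40 (22.7 ± 4.68). The ranges of Cyp2d9 and Cyp2d10 touched, as did those of Cyp2d10 and Cyp2d26, and the lower 2 genes stood apart. The annotated exons of Cyp2d9 span 2658 bases and its first listed transcript 1712, whereas Cyp2d10 has 1648 by both. The distance between these genes on this scale therefore depends on the length used. In fWT mice Cyp2d26 came first (424 ± 31.1 CPM per kb), followed by Cyp2d10 (322 ± 22.6) with no overlap, Cyp2d22 (59.6 ± 6.29), Cyp2d40 (19.2 ± 1.82) and Cyp2d9 (14.8 ± 6.06). The last 2 overlapped. In mKO mice the order was that of mWT mice, with Cyp2d9 (529 ± 61.1 CPM per kb) above Cyp2d10 (386 ± 40.5) without overlap. In fKO mice Cyp2d9 (24.2 ± 7.44 CPM per kb) and Cyp2d40 (22.7 ± 4.06) overlapped.

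**Figure D1:**
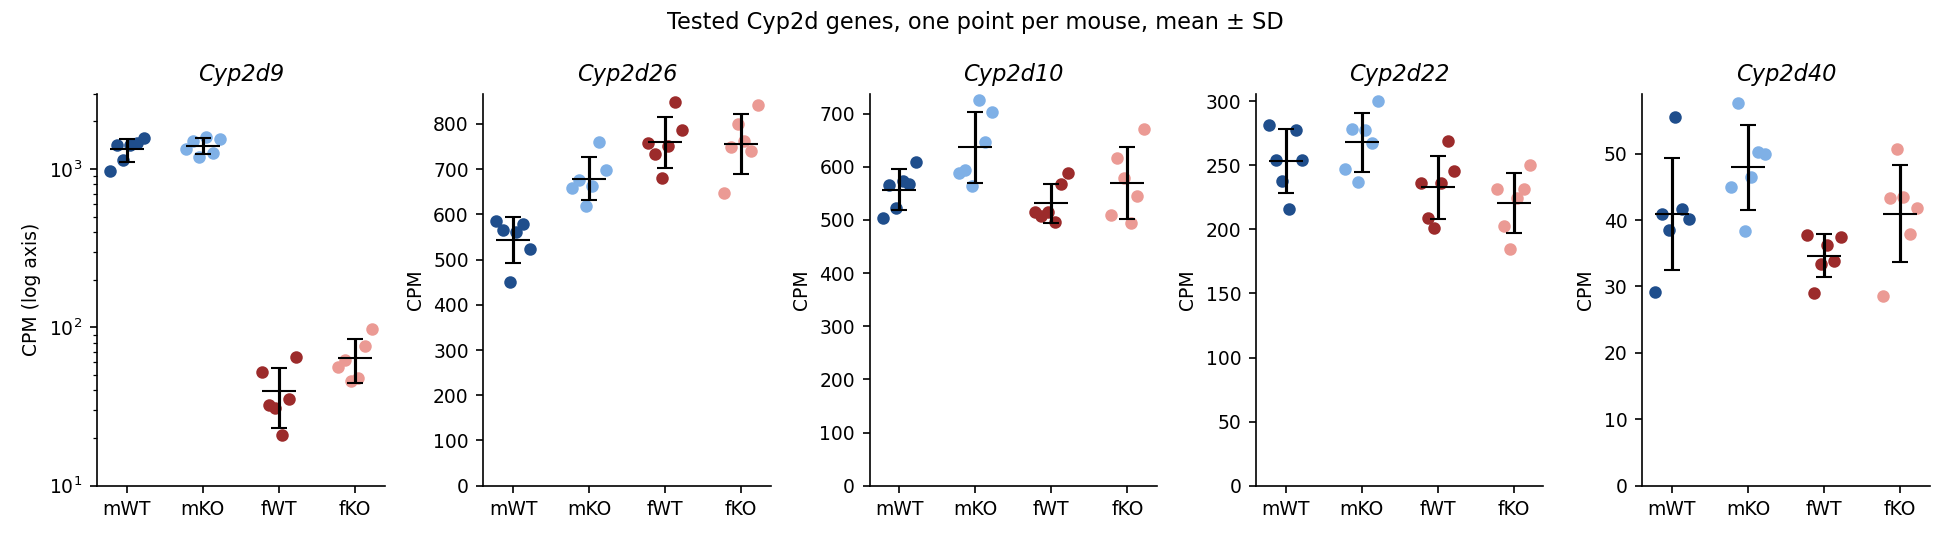
CPM of the 5 tested Cyp2d genes in each mouse (points) with the mean and SD of 6 mice per group (black); the Cyp2d9 axis is logarithmic and the other axes start at 0. Cyp2d9 separates males from females in both genotypes, whereas Cyp2d26 is lowest in mWT mice.

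The first comparison asked which Cyp2d genes differ between the sexes in wild type liver. Cyp2d9, the male-predominant steroid hydroxylase, was far higher in males and Cyp2d26 was moderately lower in males. A gene was called at a Benjamini-Hochberg adjusted p under 0.05 over all 12330 genes tested (edgeR quasi-likelihood test), and 17.3% of all genes were called in this comparison (18.2% had an unadjusted p under 0.01). Of the 5 tested Cyp2d genes 2 were called by either criterion, 1 higher and 1 lower in males. Their median log2 fold change was 0.12, and that of all genes tested was -0.002.

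Cyp2d9 had 974 CPM in the lowest, 1412 CPM in the median and 1581 CPM in the highest mWT mouse. In fWT mice the lowest value was 20.97 CPM, the median 33.7 CPM and the highest 65.1 CPM. Every mWT mouse thus lay above every fWT mouse, and fWT mice varied more among themselves (CV 40.9%) than mWT mice (CV 16.9%). Cyp2d9 was 33.8-fold higher in mWT than in fWT mice (95% CI 23.5 to 48.5, log2 fold change 5.08 ± 0.252 SE, adjusted p = 4.21e-13 by edgeR). It ranked 16 by p among the 12330 genes.

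Cyp2d26 was at 450 CPM in the lowest, 563 CPM in the median and 586 CPM in the highest mWT mouse. The fWT values ran from 680 CPM through a median of 754 CPM to 848 CPM. All fWT mice lay above all mWT mice. The difference was 1.40-fold in favour of females (95% CI 1.25 to 1.55, log2 fold change -0.48 ± 0.0752 SE, adjusted p = 4.16e-05 by edgeR).

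Cyp2d10, the nearest copy of Cyp2d9 with abundant expression, had nearly the same level in both sexes. Its mean was 557 ± 37.8 CPM (SD, n = 6) in mWT and 531 ± 37.3 CPM in fWT mice, with overlapping ranges. The fold was 1.05 (95% CI 0.935 to 1.18, adjusted p = 0.612 by edgeR). Cyp2d22 averaged 253 ± 24.7 CPM in mWT and 233 ± 24.6 CPM in fWT mice (1.09-fold, 95% CI 0.965 to 1.23, adjusted p = 0.349). Cyp2d40, the least abundant of the tested genes in males, averaged 41.0 ± 8.44 CPM and 34.6 ± 3.29 CPM (1.18-fold, 95% CI 0.989 to 1.42, adjusted p = 0.194). The groups overlapped for both genes. Of these 3 intervals, only that of Cyp2d40 reached a difference as large as the one of Cyp2d26.

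The same comparison in knockout mice asked whether these sex differences were present without the Mup cluster. Cyp2d9 was again far higher in males, Cyp2d22 was slightly higher in males, and the Cyp2d26 difference did not pass the test. Of all genes, 14.4% were called (15.9% at an unadjusted p under 0.01), and of the 5 Cyp2d genes 2 by either criterion, both higher in males. Their median log2 fold change was 0.23, and that of all genes was -0.005.

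Cyp2d9 ran from 1192 CPM through a median of 1424 CPM to 1587 CPM in mKO mice. In fKO mice it ran from 45.7 CPM through 59.0 CPM to 97.9 CPM. The sexes did not overlap, and the fold was 21.9 (95% CI 15.4 to 31.0, log2 fold change 4.45 ± 0.244 SE, adjusted p = 3.89e-12 by edgeR).

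Cyp2d22, a gene also known from tissues outside the liver, had 237 CPM, 273 CPM and 300.2 CPM as lowest, median and highest mKO values. The fKO values were 185 CPM, 228 CPM and 250.2 CPM. The ranges overlapped. Cyp2d22 was 1.21-fold higher in mKO than in fKO mice (95% CI 1.08 to 1.37, adjusted p = 0.0250 by edgeR), and the call was lost when mKO mouse 4 or 6 or fKO mouse 2 or 3 was left out, with adjusted p of up to 0.0772. Whether the sex difference of Cyp2d22 differed between genotypes is the interaction given below, which did not pass the test.

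Cyp2d26 had 619 CPM, 669 CPM and 759 CPM as lowest, median and highest mKO values. In fKO mice these were 646 CPM, 755 CPM and 842 CPM, and most of both ranges was shared. The difference was 1.11-fold in favour of females (95% CI 1.001 to 1.24, log2 fold change -0.16 ± 0.0751 SE, adjusted p = 0.173 by edgeR). Cyp2d10 (1.12-fold higher in males, 95% CI 0.997 to 1.25, adjusted p = 0.189) and Cyp2d40 (1.17-fold, 95% CI 0.979 to 1.40, adjusted p = 0.239) did not pass the test either.

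**Figure D2:**
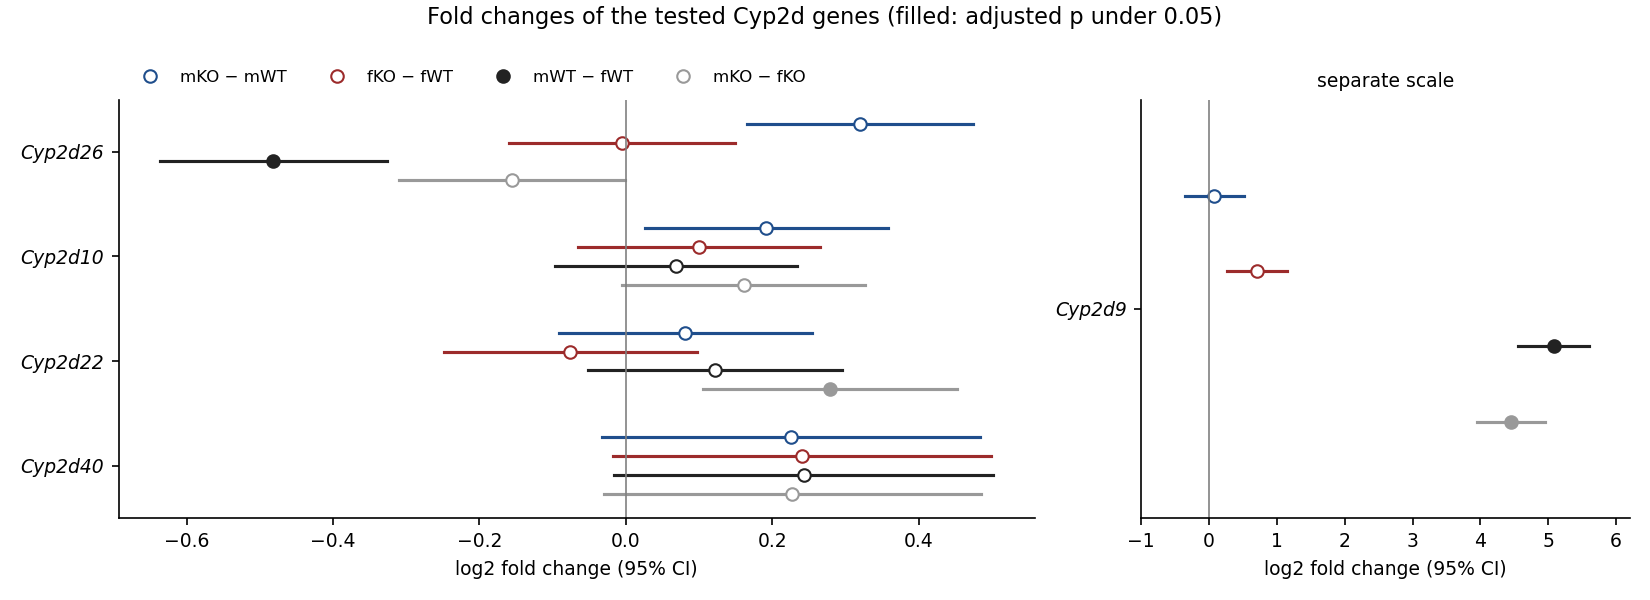
Log2 fold changes (points) with 95% confidence intervals (lines) of the tested Cyp2d genes in 4 comparisons of 6 against 6 mice; filled points mark an adjusted p under 0.05 and Cyp2d9 has its own scale. Filled points appear only in the comparisons between sexes, and the male knockout interval of Cyp2d26 lies to the right of 0.

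The next comparison asked what the Mup cluster deletion changed in males. No Cyp2d gene was called by edgeR. Cyp2d26 came nearest, higher in every mKO mouse than in every mWT mouse. Of all genes 0.211% were called (26 genes, 17 of them Mup genes) and 3.52% had an unadjusted p under 0.01, and of the 5 Cyp2d genes 0 were called and 1 had an unadjusted p under 0.01. At an unadjusted p under 0.05 there were 2 of 5, beside 10.6% of all genes. DESeq2 called 1 of 5, which was Cyp2d26, beside 1.94% of the 7310 genes to which it gave an adjusted p. All 5 log2 fold changes were above 0, with a median of 0.19 against -0.002 for all genes.

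For Cyp2d26 the lowest mKO mouse, at 619 CPM, lay above the highest mWT mouse, at 586 CPM. The fold was 1.25 (95% CI 1.12 to 1.39, log2 fold change 0.32 ± 0.0751 SE, unadjusted p = 0.000234), with an adjusted p of 0.0875 by edgeR and of 0.00417 by DESeq2. Over the other settings tried, leaving out single mice included, the adjusted p reached up to 0.266. Without mWT mouse 1, which held the highest mWT value, the adjusted p was 0.0499. Without mWT mouse 3, which held the lowest (450 CPM), it was 0.161.

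Cyp2d10 averaged 637 ± 66.8 CPM (SD, n = 6) in mKO mice, 1.14-fold the mWT level (95% CI 1.02 to 1.28, unadjusted p = 0.0245, adjusted p = 0.376 by edgeR). Cyp2d40 averaged 47.9 ± 6.41 CPM (1.17-fold, 95% CI 0.978 to 1.40, adjusted p = 0.551) and Cyp2d22 268 ± 22.9 CPM (1.06-fold, 95% CI 0.939 to 1.19, adjusted p = 0.814). The groups overlapped for all 3. Cyp2d9, with 1331 ± 225 CPM in mWT and 1406 ± 162 CPM in mKO mice, gave 1.06-fold (95% CI 0.780 to 1.43, adjusted p = 0.948).

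In females the deletion was likewise compared with wild type. No Cyp2d gene was called by edgeR or DESeq2, and the lowest p belonged to Cyp2d9. Of all genes 0.0892% were called (11 genes, all Mup genes) and 0.868% had an unadjusted p under 0.01. Of the 5 Cyp2d genes 1 had an unadjusted p under 0.01, and the same count held at 0.05, beside 4.87% of all genes. DESeq2 called 0.146% of all genes. The median log2 fold change was 0.10 for the 5 genes and -0.003 for all genes.

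Cyp2d9 averaged 39.4 ± 16.1 CPM (SD, n = 6) in fWT and 64.3 ± 19.8 CPM in fKO mice. The 2 highest fWT mice (51.9 and 65.1 CPM) lay among the fKO values. The fold was 1.63 (95% CI 1.20 to 2.22, log2 fold change 0.71 ± 0.216 SE), with an unadjusted p of 0.00337 and an adjusted p of 0.929 by edgeR, and the adjusted p was at least 0.119 in all settings tried. Even the highest fKO value, 97.9 CPM, was far under the lowest male value of 974 CPM. Cyp2d26 averaged 759 ± 55.8 CPM in fWT and 756 ± 65.9 CPM in fKO mice (0.996-fold, 95% CI 0.895 to 1.11, adjusted p = 0.997). Cyp2d10 (1.07-fold, 95% CI 0.956 to 1.20), Cyp2d22 (0.949-fold, 95% CI 0.842 to 1.07) and Cyp2d40 (1.18-fold, 95% CI 0.988 to 1.41) also overlapped between genotypes.

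The difference of the knockout effect between sexes was tested as an interaction. No Cyp2d gene was called by edgeR or DESeq2, where 0.00811% of all genes were called by edgeR (1.16% at an unadjusted p under 0.01). DESeq2 called 0.0811% of all genes. At an unadjusted p under 0.05 there were 2 of 5 Cyp2d genes, beside 5.99% of all genes, and under 0.01 there was 1, Cyp2d26. Its log2 fold change was 0.33 higher in males (SE 0.106, 95% CI 0.11 to 0.54, unadjusted p = 0.00496, adjusted p = 0.816 by edgeR). For Cyp2d9 the change was 0.63 lower in males (log2 difference -0.63 ± 0.302 SE, unadjusted p = 0.0489, adjusted p = 0.829). Cyp2d22 gave 0.16 ± 0.119 (adjusted p = 0.897), Cyp2d10 0.09 ± 0.114 and Cyp2d40 -0.02 ± 0.177. The effect in males and the sex difference in wild type mice share the mWT group, and their values for Cyp2d26 are 0.32 and -0.48 on the log2 scale.

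Summed over the members, Cyp2d expression was 2727 ± 273 CPM (SD, n = 6) in mWT, 3038 ± 253 CPM in mKO, 1598 ± 118 CPM in fWT and 1653 ± 144 CPM in fKO mice. The sum does not depend on how counted reads were divided among the members, but reads discarded or given to pseudogenes are not in it, and no test was made on it. Males ranged from 2376 to 3301 CPM and females from 1460.5 to 1905 CPM, without overlap. The genotypes overlapped within each sex. Without Cyp2d9 the sum was 1396 ± 75.7 CPM in mWT, 1633 ± 118 CPM in mKO, 1559 ± 110 CPM in fWT and 1588 ± 130 CPM in fKO mice. Without Cyp2d9 the male mean was thus under the female mean in wild type mice and slightly over it in knockout mice, but the sexes overlapped in both genotypes.

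The make-up of the pool differed accordingly. Cyp2d9 supplied 48.5% ± 3.97 (SD, n = 6) of Cyp2d reads in mWT and 46.2% ± 2.26 in mKO mice, but 2.44% ± 0.893 in fWT and 3.85% ± 0.918 in fKO mice. Cyp2d26 supplied 20.1% ± 2.45 and 22.4% ± 1.88 in the males and 47.5% ± 1.22 and 45.8% ± 1.99 in the females. Cyp2d10 supplied 20.5% ± 0.873 in mWT and 33.3% ± 1.24 in fWT mice, although its CPM hardly differed. Shares add to a fixed total, so a rise of one gene lowers the others.

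**Figure D3:**
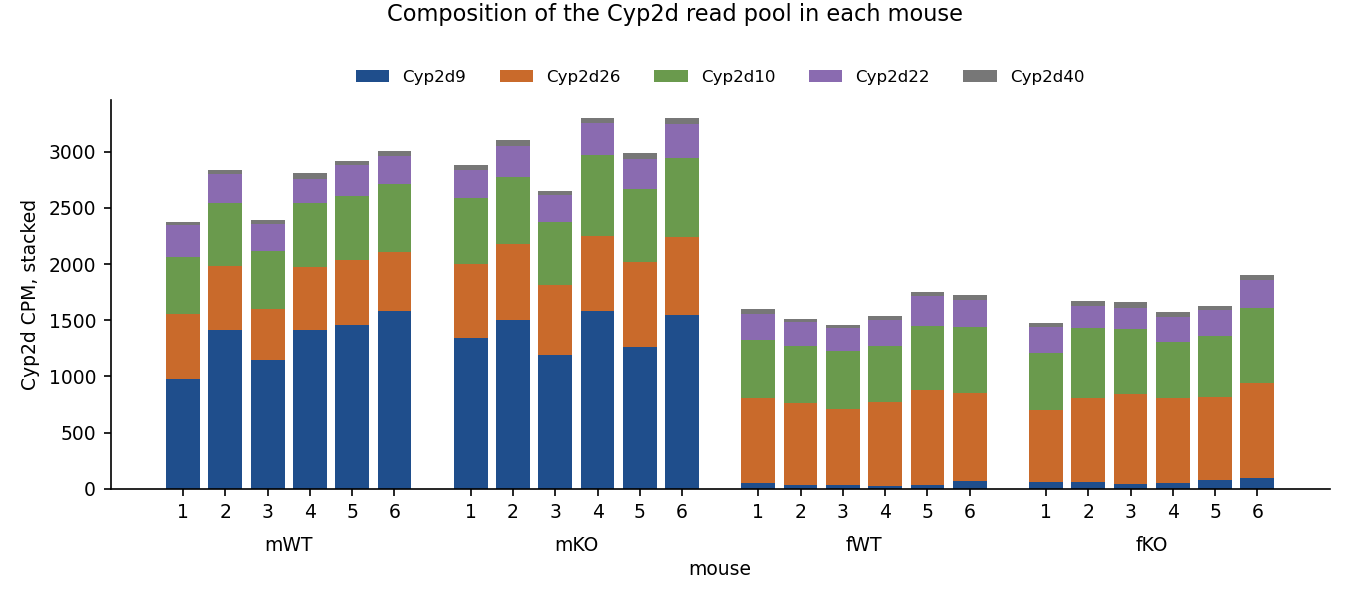
Stacked CPM of the 5 tested Cyp2d genes in each of the 24 mice, grouped by sex and genotype; bar height is their summed CPM from 0. Cyp2d9 forms 41.0% to 52.5% of the mWT pool and 1.36% to 3.78% of the fWT pool.

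Cyp2d11, Cyp2d12 and Cyp2d34 were at the limit of detection. Cyp2d11 had 7 to 16 reads in each mWT, 4 to 13 in each mKO, 2 to 8 in each fWT and 3 to 11 in each fKO mouse. On the CPM scale the mWT mice (0.437 to 0.996) lay above the fWT mice (0.102 to 0.356), whereas mKO and fKO mice overlapped. When the filter on low counts was dropped, edgeR called 946 of 18682 genes higher and 1002 lower in mWT than in fWT mice. Between mKO and fKO mice it called 803 higher and 802 lower in males. In that fit Cyp2d11 had a log2 fold change of 1.44 ± 0.360 SE between mWT and fWT mice (adjusted p = 0.00685 by edgeR). Between mKO and fKO mice the value was 0.87 ± 0.356 (adjusted p = 0.142). The direction of Cyp2d11 was that of Cyp2d9, with which it shared 15 windows of 100 bases. With Cyp2d10, which was not called between the sexes in either genotype, it shared 165. The part of shared reads in these few counts was not tested. Cyp2d12 had 39, 36, 41 and 58 reads in all in mWT, mKO, fWT and fKO mice, and in the unfiltered fit no comparison was called (lowest adjusted p = 0.446). Cyp2d34 had 3 reads in the mWT group, 0 in mKO, 1 in fWT and 4 in fKO mice. A count of 0 in a library allows up to 3 reads, which is 0.114 to 0.195 CPM at these depths and covers counting error only.

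**Figure D4:**
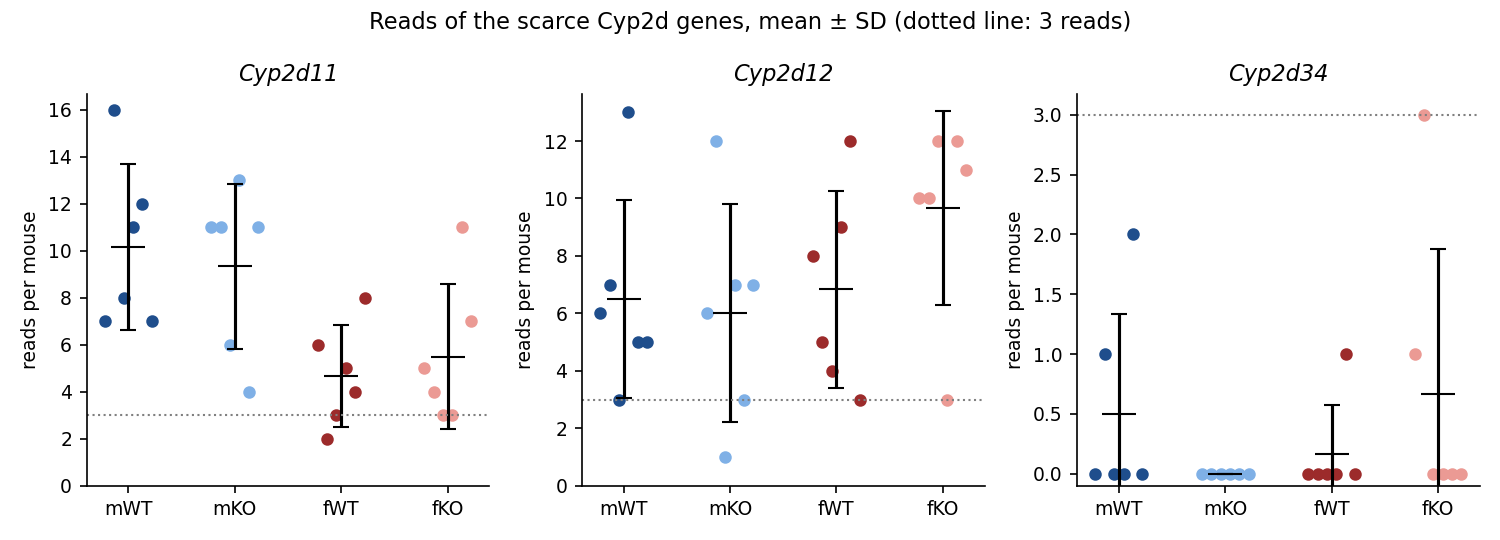
Reads per mouse of Cyp2d11, Cyp2d12 and Cyp2d34 (points) with the mean and SD of 6 mice per group (black); the dotted line marks 3 reads. Cyp2d11 reaches 16 reads at most and Cyp2d34 reaches 3.

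Mice of 1 group also varied together in some Cyp2d genes. After each group's mean was removed from log2 CPM, Cyp2d9 and Cyp2d10 were correlated over the 24 mice (Pearson's r = 0.614, permutation p = 0.00120, adjusted p = 0.0120 over 10 pairs; Spearman's rho = 0.612, permutation p = 0.00248, adjusted p = 0.0248). Without the 2 mice farthest from the median of Cyp2d9, r was 0.589. Within the groups r was 0.974 in mWT, 0.704 in mKO, 0.680 in fWT and 0.639 in fKO mice. These genes share 65 windows of 100 bases, and the part of shared reads was not tested. None of the other 9 pairs passed the adjustment, with r from -0.214 for Cyp2d22 and Cyp2d40 to 0.469 for Cyp2d10 and Cyp2d26 (permutation p = 0.0284, adjusted p = 0.142).

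Whether wild type mice with more Mup RNA also had more Cyp2d RNA was asked within each sex, as 10 relations over 6 mice each. None passed the adjustment. The lowest p belonged to Cyp2d22 in mWT mice, where it was lower in mice with more Mup RNA (r = -0.910, exact permutation p = 0.0111, adjusted p = 0.111; rho = -0.943, exact permutation p = 0.0167, adjusted p = 0.167; r = -0.843 without the 2 mice farthest from the median Mup level). For Cyp2d9 in mWT mice r was 0.550 and rho -0.0286 (exact permutation p = 0.279 and 1), and r turned to -0.752 without the 2 farthest mice. Cyp2d40 in mWT mice behaved similarly, with r = 0.932 (exact permutation p = 0.0542, adjusted p = 0.271) turning to -0.672, so both relations rest on those mice. In fWT mice the largest r in size was -0.613, for Cyp2d22 (exact permutation p = 0.186).

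The genes outside the family whose levels followed each member most closely across the 24 mice, after group means were removed, are given as a description. For Cyp2d9 these were Nat8 (r = 0.778), Erh (0.767) and Sra1 (0.725). Cyp2d10 was followed by Ndufa8, a subunit of mitochondrial complex I (r = 0.814), Ctdnep1 (0.795) and Pfn1 (0.765). Cyp2d22 was followed by Acad10 (r = 0.825), Got2, the mitochondrial aspartate aminotransferase (0.822), and Treh (0.817). Cyp2d26 was followed by the secreted liver proteins Lcat (r = 0.774) and Hp (0.741) and by Tex264 (0.729), and Cyp2d40 by Fkbp11 (r = 0.718), Wnt2 (0.677) and Prdx4 (0.676). These were the highest positive r over all tested genes outside the family, so they are large by selection. Negative relations were not sought. Treh, Wnt2 and Erh averaged only 1.33, 2.42 and 4.08 CPM. No gene appeared in the lists of 2 members. All these values share library depth and composition.

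The genes that serve P450 enzymes were followed as a list of 18 genes of electron transfer and heme supply, all tested. In wild type mice 2 were called, both higher in males: Cyb5r3, a cytochrome b5 reductase that lies within 500 kb of the Cyp2d row (log2 fold change 0.44, adjusted p = 0.00133 by edgeR), and Fech, the last enzyme of heme synthesis (0.21, adjusted p = 0.0215). In knockout mice 3 were higher in males, among them Cyb5r3 (0.49) and Cyb5b (0.35), and 1 was lower, the oxidoreductase Por (-0.85, adjusted p = 0.0381). The knockout called none of the 18 in either sex by edgeR (unadjusted p under 0.05 for 4 in males and 1 in females, DESeq2 calls 1 and 0). Between male genotypes 12 of the 18 were higher and 6 lower in mKO mice. At an unadjusted p under 0.01 there were 2 higher and 0 lower. Por, which edgeR did not call between genotypes, was among the lower ones. It averaged 358 ± 128 CPM in mWT and 214 ± 55.2 CPM in mKO mice. The list medians were 0.03 in wild type and 0.14 in knockout mice for the sex difference, near that of all genes in the former.

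Of 22 regulators of liver sex bias and P450 genes, 5 were called between wild type sexes. Rsl1, a zinc finger repressor known for Cyp2d9 and Mup among its targets, was lower in males (log2 fold change -0.51, adjusted p = 0.0296 by edgeR), as was Cux2, a female-biased repressor (-6.30). Ghr, the growth hormone receptor, was higher in males (0.37, adjusted p = 0.00140). In knockout mice 3 were called, all lower in males, Cux2 (-7.50), the estrogen receptor gene Esr1 (-2.05) and Igf1 (-0.30). None was called for the knockout in males (unadjusted p under 0.05 for 2, DESeq2 calls 2), in females (1 and 0) or for the interaction (2 and 1) by edgeR.

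Beside Cyp2d9, 10 male-biased reference genes of liver were all called higher in males in both genotypes, with median log2 fold changes of 4.06 in wild type and 3.03 in knockout mice, so Cyp2d9 (5.08 and 4.45) lay above both medians. The 10 female-biased reference genes were all called lower in males. In fKO against fWT mice the 10 male-biased genes had log2 fold changes above 0, beside 6054 of all 12330 genes. The median of the 10 was 0.63, beside 0.71 for Cyp2d9, but none was called by edgeR or DESeq2 (unadjusted p under 0.05 for 2). Of the female-biased genes 8 had values under 0, beside 6273 of all genes (median -0.23, none called by either tool, unadjusted p under 0.05 for 0). In males 4 male-biased genes had values above and 6 under 0 (median -0.11). Of the female-biased genes 8 were above and 1 under 0 (median 0.15), and of all genes 6095 were above 0. Each list in males had 0 calls by edgeR, an unadjusted p under 0.05 for 1 gene and 1 DESeq2 call.

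Of 32 genes within 500 kb of the Cyp2d row, 19 were tested. Between wild type sexes 5 were called, among them Cyb5r3 and Desi1 (0.21) higher and Nfam1 (-0.91) lower in males. In knockout mice Cyb5r3 was the single call. The largest neighbour value in size was thus well under that of Cyp2d9. The knockout called none of the neighbours in either sex by edgeR or DESeq2 (unadjusted p under 0.05 for 3 in males and 1 in females), and neither did the interaction (2).

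Markers of other liver cells differed between the sexes as well. Kupffer cell markers (5 of 5 found, none at 0) summed to 62.7 to 124 CPM in mWT and 113 to 207 CPM in fWT mice, and 3 were called lower in wild type males and 0 in knockout males (unadjusted p under 0.05 for 2, DESeq2 calls 0). Erythroid markers (3 of 3) summed to 142 to 197 CPM in mWT and 34.0 to 55.3 CPM in fWT mice, with Alas2 higher in males (log2 fold change 3.44). Alas2 averaged 132 CPM in mWT and 12.1 CPM in fWT mice. The other 2 markers, Hbb-bs (35.5 and 28.5 CPM) and Hba-a1 (7.35 and 5.41 CPM), were not called between wild type sexes, so the gap between these sums came mostly from Alas2. In knockout mice all 3 erythroid markers were called higher in males, with sums of 143 to 232 CPM in mKO and 35.1 to 51.6 CPM in fKO mice. Liver endothelial, stellate and cholangiocyte markers each had 1 or 2 calls lower in wild type males, and in knockout males 2 stellate and 1 endothelial marker were called lower. Of the cholangiocyte markers none was called between knockout sexes by edgeR (unadjusted p under 0.05 for 2, DESeq2 calls 1). Summed lymphocyte markers reached at most 5.64 CPM. Between genotypes no marker of any of these lists was called by edgeR or DESeq2 in either sex (unadjusted p under 0.05 for at most 2 markers of a list). Their part in the Cyp2d sex differences was not tested, and hepatocyte markers showed no call between wild type sexes (unadjusted p under 0.05 for 1, DESeq2 calls 0) and 1 between knockout sexes, Ttr (log2 fold change 0.42). In whole liver, fewer cells of a type and less RNA per cell cannot be told apart.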

How the data were processed

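Raw gene counts were deposited by the authors, 1 file per mouse. Per the labels and methods, libraries of liver mRNA, prepared with a stranded kit, were read as single reads of 100 bases in 1 multiplexed run, and the submitters' processing notes name bcl2fastq 2.19, fastp 0.20, STAR 2.7a and edgeR 3.28.1, with counting by featureCounts. The annotation release, the strand setting and the handling of multimapping reads are not given in the sources used here. Dropping such reads would lower the counts of near copies. Ensembl IDs were matched to GENCODE M21 (GRCm38): 25635 of 25746 matched and 111 did not.

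All genes were fitted together in edgeR 4.0.16 (R 4.3.3) with TMM normalization, a mean for each of 4 groups and robust quasi-likelihood tests, after removal of genes that reached 0.66 CPM in fewer than 6 of the 24 libraries, and p-values were adjusted by Benjamini-Hochberg over 12330 genes. Intervals are 95% of that fit. DESeq2 1.42.0, other normalizations, filters and dispersions, removal of the Mup genes, a replicate block and leaving out each mouse were the alternatives. On simulated counts the fit recovered 87% of genes changed by 1 log2 unit in the male knockout comparison and 89% in the wild type sex comparison. In the simulated male comparison more genes were changed than were called in the data. Smaller changes, which include all those of the tested Cyp2d genes between genotypes, were not simulated, so these shares do not apply to them. Correlations used log2 CPM with a prior count of 2 and 100000 permutations within groups, or all pairings of 6 mice. Transcripts were compared as global alignments (Biopython 1.88).

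All 9 Cyp2d genes were to be named; of each other list, up to 4 called genes with the lowest p per comparison; and for each tested member the 3 genes most like it. Some genes that this rule names are not reported here. Members and lists were chosen with earlier results of these data known. Libraries are separate mice, and p-values measure the spread between them. The 60 pairs of libraries within groups all differed by more than sampling noise (chi-square per gene at least 8.14). Dixon's test set no mouse apart in any of the 20 combinations of tested Cyp2d gene and group. Mouse numbers come from the labels and do not pair the groups.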

Additional observations from a re-analysis of the deposited data

How the results depend on the processing

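Across 33 alternative settings no Cyp2d log2 fold change with a called value changed direction. The 2 calls between wild type sexes held in all of them. In the male knockout comparison DESeq2 called 1 Cyp2d gene where edgeR called 0, and leaving out single mice gave 0 to 1 (1 without mWT mouse 1). Between knockout sexes leaving out single mice gave 1 to 2 called, with Cyp2d22 the gene lost. Over all genes the male knockout count of 26 became 142 with DESeq2, 48 with only the compared groups, 2 with the Mup genes removed and 19 to 60 when single mice were left out (60 without mWT mouse 1 and 43 without mWT mouse 2). The female count of 11 became 18 with DESeq2 and 0 with the Mup genes removed, and the interaction count of 1 became 10 with DESeq2. Of the genes called with the Mup genes in the fit, 17 of 26 in males and 11 of 11 in females were Mup genes. The cause of the other changes was not tested.

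Same-numbered mice of different groups did not deviate together (36 pairs, r from -0.335 to 0.253, median -0.002, 10 over 0.1, and a best match by number in 11 of 72 cases). With the mouse number as a replicate block the counts were 24 in males, 11 in females, 1 for the interaction, 2062 between wild type sexes and 1664 between knockout sexes, and the number of Cyp2d genes called changed in none. Depth limits Cyp2d11, Cyp2d12 and Cyp2d34, whose counts of 0 to 16 reads could not show differences of the size seen for Cyp2d26.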
